A study of Mus musculus with 6 samples.

Results

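The GABA-A receptor subunits examined here are 7 genes, Gabra2, Gabra3, Gabra5, Gabra6, Gabrb1, Gabrb2 and Gabrd, and the members are all 21 array probes annotated to one of these symbols alone, of 45037 probes besides controls. RNA was compared on 6 single-colour Affymetrix arrays, from 3 wild-type and 3 Gb5-deficient mice; Gb5 is the G protein beta subunit encoded by Gnb5. The tissue is labelled as brain, and the title of the series calls it cerebellar. Mice were littermates of like age and sex per the labels, which give neither the age, the strain nor the deleted part of Gnb5, and which name no treatment. The arrays carry the numbers 1 to 3 for wild type and 4 to 6 for Gb5-deficient mice.

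GABA-A receptors are chloride channels built of several subunits around a pore and opened by GABA, the main inhibitory transmitter of the brain. Alpha and beta subunits together form the GABA binding sites, and a gamma or delta subunit completes the channel and helps decide whether it lies at synapses or outside them. In cerebellar granule cells, alpha6 and delta are known for receptors outside synapses that carry a lasting, tonic inhibition, and alpha6 makes receptors insensitive to diazepam. Gb5 acts with RGS proteins on G protein signalling, which includes GABA-B receptors; GABA-A receptors are channels and do not signal through G proteins.

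Upstream sequences are shown for 3 of the genes: the one with the brightest signal (Gabra6), its neighbour on chromosome 11 (Gabrb2), and the only one whose genotypes did not overlap (Gabra2). Each is the 250 bases before a RefSeq gene start (build GRCm38.p6), 5′ to 3′ on the strand of the gene. Capitals mark GCCAA, or TTGGC where the match is on the other strand, a half-site of nuclear factor I, a family of factors known to act on Gabra6 in granule cells.
Gabra6, chr11:42321073-42321322, minus strand: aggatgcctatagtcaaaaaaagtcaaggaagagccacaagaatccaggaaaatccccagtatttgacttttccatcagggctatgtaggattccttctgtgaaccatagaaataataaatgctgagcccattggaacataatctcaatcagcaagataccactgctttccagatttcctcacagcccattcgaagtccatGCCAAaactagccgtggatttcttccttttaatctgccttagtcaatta
Gabrb2, first of 3 listed starts, chr11:42420190-42420439, plus strand: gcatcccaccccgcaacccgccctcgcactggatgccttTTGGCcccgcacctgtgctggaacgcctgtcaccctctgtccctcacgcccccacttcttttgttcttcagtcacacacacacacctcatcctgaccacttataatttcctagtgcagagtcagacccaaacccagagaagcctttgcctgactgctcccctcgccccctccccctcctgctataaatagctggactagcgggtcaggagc
Gabra2, chr5:71095850-71096099, minus strand: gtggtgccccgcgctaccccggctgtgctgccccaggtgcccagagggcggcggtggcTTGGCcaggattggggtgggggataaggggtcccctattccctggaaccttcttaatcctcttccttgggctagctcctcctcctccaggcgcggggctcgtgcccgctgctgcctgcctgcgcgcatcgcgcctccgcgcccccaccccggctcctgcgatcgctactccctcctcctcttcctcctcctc

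The window of Gabra6 was poor in G and C, at 40.8%, with 2 CpG pairs, while that of Gabra2 held 70.0% and 18 CpG pairs; the median over 32851 such windows of all genes was 52.4%. The first listed start of Gabrb2 lay between them with 58.8% and 8 CpG pairs, and its other starts had 54.0% and 36.8%. All 3 windows shown held 1 GCCAA match, counting both strands, which 41.5% of all windows also had. The motif CANNTG, an E-box that reads the same on both strands, had 1 match in Gabra2, 1 in Gabrb2 and no match in Gabra6, and 66.2% of all windows held it. The TATA motif TATAAA had a match in the Gabrb2 window shown, against 12.4% of all windows. The other Gabrb2 starts had no match to GCCAA or TATAAA. RefSeq windows were found for 6 of the 7 genes, and Gabrd was not among them. In the same RefSeq gene order, no protein-coding gene lies between Gabra6 and Gabrb2, and 2 lie between Gabra2 and Gabrb1 on chromosome 5.

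All arrays had similar signal distributions, with medians from 6.48 to 6.57 (log2), which the authors' RMA processing makes alike. The Gnb5 signal read from 8.51 to 8.80 on wild-type and from 2.96 to 3.65 on Gb5-deficient arrays, as the genotype labels have it; the labels do not say whether the probe lies in the deleted part. Gb5-deficient array 6 stood apart: Xist read 8.22 against 11.17 to 11.64 on the others, and the Y-linked Eif2s3y read 11.80 against 3.19 to 3.43, which goes against sex-matched mice. Its difference between the ends of the Gapdh control was also larger, 1.58 against 1.03 to 1.14. Cerebellar markers were bright: the 11 measured granule cell genes lay at or above the 75.3rd percentile of all wild-type probes and the 9 Purkinje cell genes at or above the 92.4th. Markers of brainstem were also present, with the serotonin neuron genes Tph2 and Slc6a4 at the 86.6th and 89.1st percentile. Slc6a3, the dopamine transporter of midbrain neurons, lay at the 96.7th. The design text speaks of biological replicates from mice, and p-values set the genotype difference against the spread of these 6 samples within their genotypes.

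In wild-type tissue all 7 subunit genes had at least 1 probe in the brighter part of the array. Gabra6 gave the strongest signal, at the 98.6th percentile of all probes, followed by Gabrb2 (95.5th), Gabrb1 (94.3rd), Gabra2 (93.4th), Gabra3 (85.9th), Gabrd (80.6th) and Gabra5 (74.7th). The signals are those of each gene's brightest probe, and since probes differ in how well they bind, their order is an order of signal and not of RNA amount. This order was the same on 3 of 3 wild-type arrays. It was also that of 2 Gb5-deficient arrays, 4 and 6, while on array 5 Gabrb1 lay above Gabrb2. The smallest steps, 0.23 (log2) from Gabrb2 to Gabrb1 and 0.18 from Gabrb1 to Gabra2, were near the wild-type SDs of these 3 genes, 0.083 to 0.15. Other steps were 0.88 from Gabra6 to Gabrb2, 1.13 from Gabra2 to Gabra3, 0.66 from Gabra3 to Gabrd and 0.67 from Gabrd to Gabra5. When the mean of all probes of a gene was taken instead, Gabra6 and Gabrb2 kept the first places, but Gabra5 moved up behind them and Gabra2 came last.

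**Figure D1:**
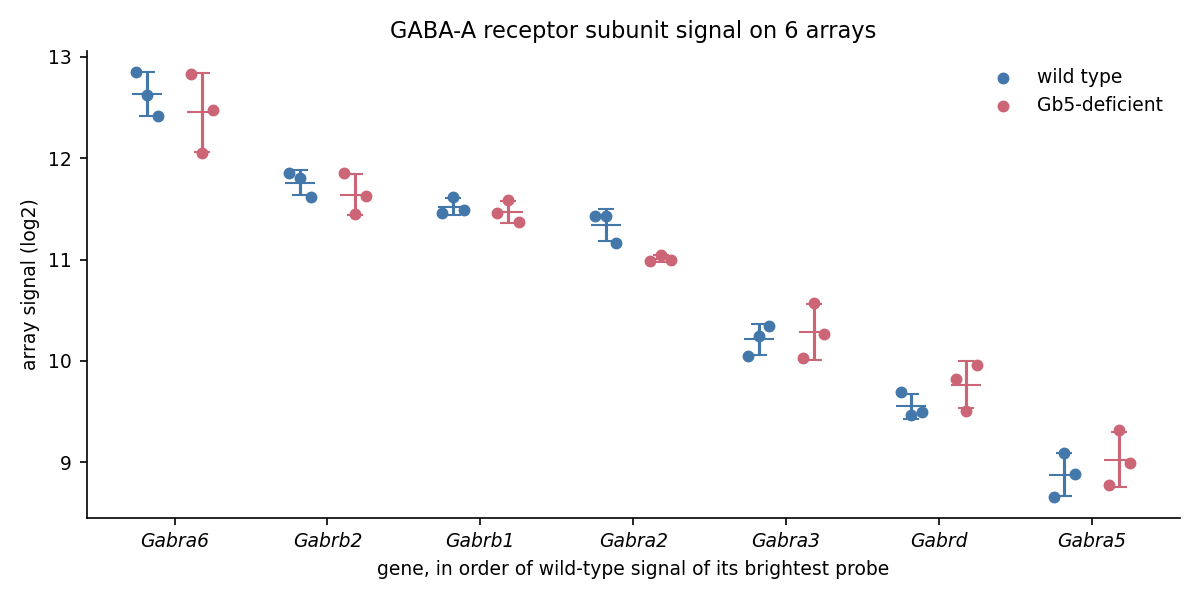
Signal (log2, vertical axis) of the brightest probe of each subunit gene on every array; points are arrays, the wide bar is the mean and the error bar the SD of 3 arrays per genotype. The arrays of both genotypes overlap for 6 genes, and for Gabra2 the 3 Gb5-deficient arrays lie below all wild-type arrays.

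None of the 7 genes passed the threshold of an adjusted p of 0.05 between genotypes (limma, adjusted over 14075 genes). Of all genes, 5 passed, a share of 0.0355%, and a count of 0 among 7 genes is near that share. At an unadjusted p under 0.05 there was 1 member, Gabra2, against 8.56% of all genes. Differences are Gb5-deficient minus wild type throughout, on the log2 scale. They were below 0 for 4 members and above 0 for 3, where 43.3% and 56.7% of all genes lay, with a median of -0.050 (-0.068 to -0.00032 with single arrays left out), against a median of 0.03 over all genes tested. The members' median standard error was 0.13, and small differences could not be told from the spread between arrays. In simulated data of the same size, with noise independent between genes, 31.6% of genes changed by 0.5 and 2.4% of genes changed by 0.25 were called. Each simulated table held 200 altered genes, some changed by 1 or 2, of which 78.8% and 97% were called. The adjusted threshold is easier to pass where many genes pass it. Only 5 did in the real data, so the rates there may be lower. Shifts of an array shared by many genes were not simulated, so rates in the real data may differ. Genotypes did not overlap in 14.9% of all genes, with Gb5-deficient mice lower in 4.82% of all genes, and of the 7 members 1 was lower in this way.

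Gabra2, the alpha subunit known from synaptic receptors at the start of axons in forebrain neurons and from developing neurons, had the largest difference of the 7 by its brightest probe with all arrays. That place went to Gabra6 with the mean of a gene's probes (-0.27 against -0.23) and without array 4 (-0.37 against -0.32), and to Gabrd with array weights (0.30 against -0.26). The brightest Gabra2 probe read 11.43, 11.43 and 11.16 (log2) on wild-type arrays 1 to 3 and 10.99, 11.05 and 10.99 on Gb5-deficient arrays 4 to 6. All Gb5-deficient arrays thus lay below all wild-type arrays, and wild-type array 3 lay nearest to them. The means were 11.34 ± 0.15 and 11.01 ± 0.03 (SD, n = 3 each), a difference of -0.33 (SE 0.090; 95% interval -0.54 to -0.13), which is a ratio of 0.795 with an interval from 0.690 to 0.916. The limma adjusted p was 0.471, from an unadjusted p of 0.00538, so the difference was not called. It was -0.32 without array 6, and over all single arrays left out it ran from -0.42 to -0.29, with no adjusted p under 0.261 in any alternative.

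Across probes, Gabra2 was lower in all 5, but only the brightest had genotypes that did not overlap. Of all 45037 probes, 13.6% did not overlap in either direction, and 5.34% of all were lower without overlap. The 1 of 21 member probes, or 4.76%, is near the share for the lower direction and below that for both. The next probes, at wild-type means of 6.90 and 6.43 (log2), differed by -0.37 (95% interval -0.96 to 0.22) and -0.20 (-0.57 to 0.16). On the Gb5-deficient side they spread widely: the first read 6.01 on array 4 and 7.09 on array 5, and the second 5.98 and 6.52. The dimmest pair, at 4.22 and 2.50, differed by -0.22 and -0.0029. The probe at 4.22 is of the type whose probes can also match other sequences. The mean of all 5 probes gave -0.23. No detection calls were used, so whether the dimmest probes read above background is not known here.

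Some markers of other cells also read lower in Gb5-deficient tissue beside Gabra2, where 4.82% of all genes were lower without overlap. Of 7 measured oligodendrocyte markers 5 had genotypes that did not overlap, all lower. The other 2, Mag (0.18) and Mbp (0.020), lay above 0 with overlap. The mean level over the list was 11.86 to 11.90 (log2) on wild-type and 11.68 to 11.83 on Gb5-deficient arrays. The 7 meningeal and fibroblast markers averaged 9.92 to 9.97 and 9.59 to 9.86, with 2 of 7 lower without overlap. The 6 blood markers were split, 3 above and 3 below 0. Of the red cell genes, Alas2 (-2.08), Slc4a1 (-1.90) and Hbb-b2 (-0.60) were lower without overlap, but Hba-a2 (0.08) lay above 0 with overlap. S100a8 (0.37) and S100a9 (0.37) also lay above 0. Of 8 brainstem and midbrain markers 1 was lower without overlap, Slc6a3 by -1.33 (unadjusted p = 0.000305 in limma, adjusted p = 0.204), and the median of that list was 0.02. None of these markers passed the adjusted threshold. Their part in the Gabra2 difference was not tested. In such bulk tissue, fewer cells of a type and less RNA per cell cannot be told apart.

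Gabra6, which encodes the granule cell alpha subunit, varied more between mice of one genotype than between genotypes. On wild-type arrays 1 to 3 its signal was 12.85, 12.63 and 12.42 (log2), and on Gb5-deficient arrays 4 to 6 it was 12.83, 12.06 and 12.47. Wild-type array 1 and Gb5-deficient array 4 were high and nearly level, and Gb5-deficient array 5 was the lowest of the 6. Means of 12.63 ± 0.22 and 12.45 ± 0.39 (SD, n = 3 each) differed by -0.18 (SE 0.18; 95% interval -0.59 to 0.23; limma adjusted p = 0.738). Without array 5 the difference was 0.019, so its direction rests on that mouse. The second Gabra6 probe, of the kind that is shared by several transcripts of a gene, was dimmer by 2.83 in wild type and differed by -0.36 (95% interval -0.98 to 0.26). It also read highest on wild-type array 1 (10.42), lowest on Gb5-deficient array 5 (9.17), and highest among Gb5-deficient arrays on array 4 (9.88). Without wild-type array 1 its difference was -0.045.

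Gabrd, the delta subunit that pairs with alpha6 outside synapses, had the highest positive difference with all arrays. Without wild-type array 2, Gabra5 lay above it (0.26 against 0.17), and without array 4 both Gabra5 (0.28) and Gabra3 (0.20) did (against 0.18). Its brighter probe gave 9.69, 9.47 and 9.49 (log2) for wild type against 9.82, 9.51 and 9.96 for Gb5-deficient mice. Arrays 4 and 6 lay above all wild-type arrays, and array 5 lay among them. Means of 9.55 ± 0.12 and 9.76 ± 0.23 (SD, n = 3 each) differed by 0.21 (SE 0.13; 95% interval -0.091 to 0.52; limma adjusted p = 0.626). Leaving out array 6 gave 0.11 and leaving out array 5 gave 0.34. The other Gabrd probe was dim, at 3.91 in wild type, and differed by 0.062. Beside it, the 11 granule cell markers had a median of 0.017, with 7 of them above 0. The NMDA receptor subunit Grin2c (0.51) and the cadherin Fat2 (0.35) were higher without overlap, as were 10.1% of all genes, and Cbln3, Neurod1, Zic1 and Kcnd2 lay below 0. Markers of cerebellar inhibitory interneurons (10 measured, 8 above 0) had a mean level of 8.52 to 8.60 on wild-type and 8.69 to 8.80 on Gb5-deficient arrays. None of these markers passed the adjusted threshold, and their part in the Gabrd difference was not tested.

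Alpha3 and alpha5 subunits are known mostly from outside the granule cell layer, alpha3 from brainstem and monoamine neurons and from Golgi cells, and alpha5 from the hippocampus. Gabra3 gave 10.04, 10.24 and 10.35 (log2) for wild type against 10.02, 10.57 and 10.26 for Gb5-deficient mice. The genotypes overlapped throughout, with array 5 the highest and array 4 the lowest of the 6. The difference was 0.074 (SE 0.15; 95% interval -0.26 to 0.41; limma adjusted p = 0.866), and it was -0.068 without array 5 and -0.0097 without wild-type array 1. The monoamine neuron gene Slc6a3 was lower without overlap beside it, and Th differed by -0.37 with overlap. Tph2 and Slc6a4 differed by 0.0083 and 0.073. The part of these genes in the Gabra3 values was not tested. Gabra3 is X-linked, and on array 6, with its male pattern, it lay between the other Gb5-deficient arrays; without that array the difference was 0.085. Its second probe was dim, at 4.75 in wild type, and differed by 0.050, with readings from 4.30 on array 6 to 5.43 on array 5.

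Gabra5, which had a single probe, showed the same spread. Its signal was 8.66, 9.09 and 8.88 (log2) for wild type against 8.77, 9.32 and 8.99 for Gb5-deficient mice, with wild-type array 1 the lowest and array 5 the highest. Its difference was 0.15 (SE 0.16; 95% interval -0.22 to 0.52; limma adjusted p = 0.753). Without array 5 it was 0.0037.

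Beta subunits are needed for GABA-A receptors to reach the membrane, and of the 7 members Gabrb1 had the narrowest interval. Gabrb1 gave 11.46, 11.62 and 11.49 (log2) for wild type against 11.46, 11.58 and 11.37 for Gb5-deficient mice, which overlap almost fully. Its difference of -0.050 (SE 0.080; 95% interval -0.23 to 0.13; limma adjusted p = 0.835) leaves a ratio between 0.851 and 1.10, and it ran from -0.11 without array 5 to -0.00032 without array 6. The next probes of Gabrb1, at 11.08 and 7.31 in wild type, differed by 0.030 and 0.023, and a dim one by -0.050. Gabrb1 was the single gene among the 5 with several brighter probes whose probes differed in direction, each by less than its standard error.

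Gabrb2, the partner of alpha6 in granule cells, gave 11.85, 11.80 and 11.62 (log2) for wild type against 11.85, 11.44 and 11.63 for Gb5-deficient mice. Array 5 was the lowest, and array 4 was level with wild-type array 1. The difference was -0.12 (SE 0.11; 95% interval -0.37 to 0.13; limma adjusted p = 0.722), and -0.018 without array 5. Its 3 next probes lay close in wild-type signal, from 11.38 to 11.68, and differed by -0.079, -0.18 and -0.11; the last is of the type whose probes can also match other sequences. The dim one left, at 4.13, differed by -0.061. All 5 Gabrb2 probes thus lay below 0, and all 5 intervals included 0.

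**Figure D2:**
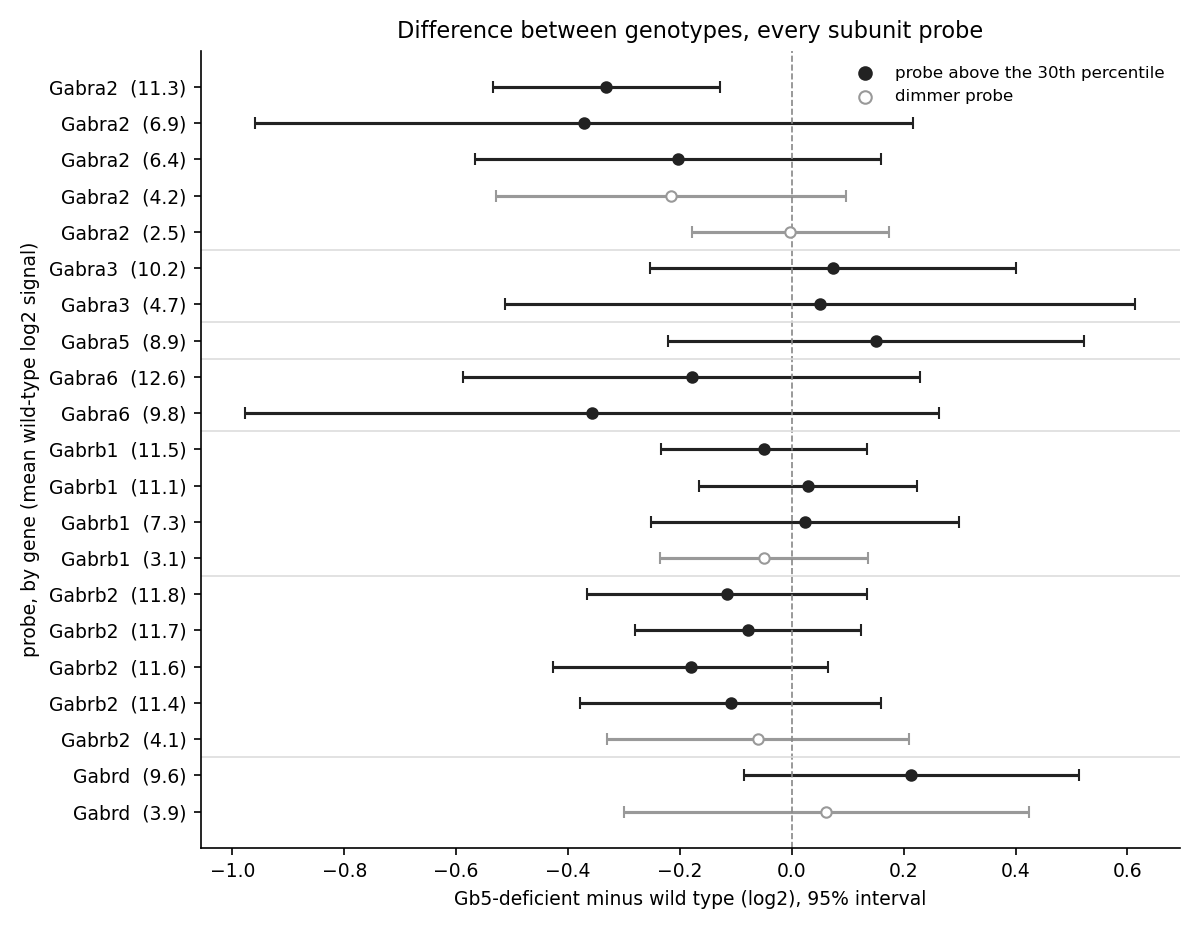
Gb5-deficient minus wild type (log2, horizontal axis) with its 95% interval for each of the 21 member probes, grouped by gene with the wild-type signal in brackets; filled points are the 16 probes above the 30th percentile of mean signal. Only the interval of the brightest Gabra2 probe, -0.53 to -0.13, leaves out 0.

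Probe by probe, 14 of the 21 differences lay below 0, against 46.5% of all probes; probes of one gene share its RNA and are not independent. None of the 21 passed (limma, adjusted over 45037 probes), where 10 probes, 0.0222%, did, and at an unadjusted p under 0.05 there was 1 member probe against 7.61% of all. Above the 30th percentile of mean signal stood 16 of the 21, and the 5 below it belonged to Gabra2 (2 probes), Gabrb1, Gabrb2 and Gabrd. Wild-type signal spanned 8.84 (log2) between the brightest and dimmest probe of Gabra2, 8.41 for Gabrb1 and 7.63 for Gabrb2. In 4 of the 5 genes with several probes above that level, Gabra2, Gabra3, Gabra6 and Gabrb2, these probes differed in one direction; without wild-type array 1 that count was 2.

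The spread within each genotype had a shape that some members shared in their brightest probes. Deviations of an array from the mean of its genotype were 0.22 for Gabra6, 0.096 for Gabrb2 and 0.14 for Gabrd on wild-type array 1 (log2). On Gb5-deficient array 4 they were 0.38, 0.21 and 0.059, and on array 5 they were -0.40, -0.20 and -0.26. Gabra3 and Gabra5 ran the other way, with -0.17 and -0.22 on wild-type array 1, -0.26 and -0.25 on array 4, and 0.28 and 0.29 on array 5. Both Gabra6 probes and both Gabra3 probes had the same sign on these 3 arrays. Gabrb2 probes did not all do so. The probes at 11.68, 11.60 and 11.38 in wild type were above the genotype mean on wild-type array 1 and array 4, but read 0.014, -0.082 and 0.039 on array 5. The brightest Gabra2 probe moved little, between -0.021 and 0.037 on the Gb5-deficient arrays, but its next probes read -0.52 and -0.24 on array 4 and 0.56 and 0.30 on array 5, the signs of Gabra3 and Gabra5 there. On wild-type array 1 they read -0.12 and 0.12, so the second went against Gabra3 and Gabra5. This grouping was seen in the values and has no test.

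Markers of cell types and regions differed between the same arrays. The median deviation of 11 granule cell markers, Gabra6 and Gabrd not among them, was 0.11 on wild-type array 1, 0.086 on array 4 and -0.18 on array 5 (log2), and on these arrays 11, 8 and 1 of the 11 were above their genotype mean. Purkinje cell markers (9 measured) had medians of 0.11, 0.067 and -0.058, and Bergmann glia and astrocyte markers (9 measured) 0.067, 0.094 and -0.076. The 8 measured forebrain markers had -0.12, -0.20 and 0.17, with a mean level of 8.36 to 8.50 on wild-type and 8.37 to 8.53 on Gb5-deficient arrays, and 2, 3 and 5 of the 8 above their genotype mean. The 8 brainstem and midbrain markers had medians of -0.28, 0.046 and 0.088, so they were low with Gabra3 on wild-type array 1 but not on array 4. Inhibitory interneuron markers had -0.0074, 0.012 and 0.036, and oligodendrocyte markers 0.0018, 0.018 and 0.014. On wild-type arrays 2 and 3 and array 6, granule cell medians were -0.054, -0.056 and 0.052, and forebrain medians -0.026, 0.12 and 0.042. Gabra6 and Gabrd had the granule cell signs there. Gabrb2 (0.044, -0.14 and -0.013) did so only on wild-type array 3. Gabra3 (0.031, 0.14 and -0.023) and Gabra5 (0.21, 0.0058 and -0.039) shared the forebrain sign only on wild-type array 3. Forebrain markers were not absent from the tissue: the transcription regulators Bcl11b and Lmo3 lay at the 89.2nd and 91.3rd percentile in wild type, and Drd1 and Tbr1, a dopamine receptor and a cortical transcription factor, at the 45.1st and 50.3rd. Choroid plexus markers varied most, with list means from 6.66 on array 4 to 9.12 on wild-type array 1. The mean level of the granule cell list ran from 11.33 to 11.53 on wild-type and from 11.33 to 11.58 on Gb5-deficient arrays. The part of these markers in the subunit values was not tested.

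**Figure D3:**
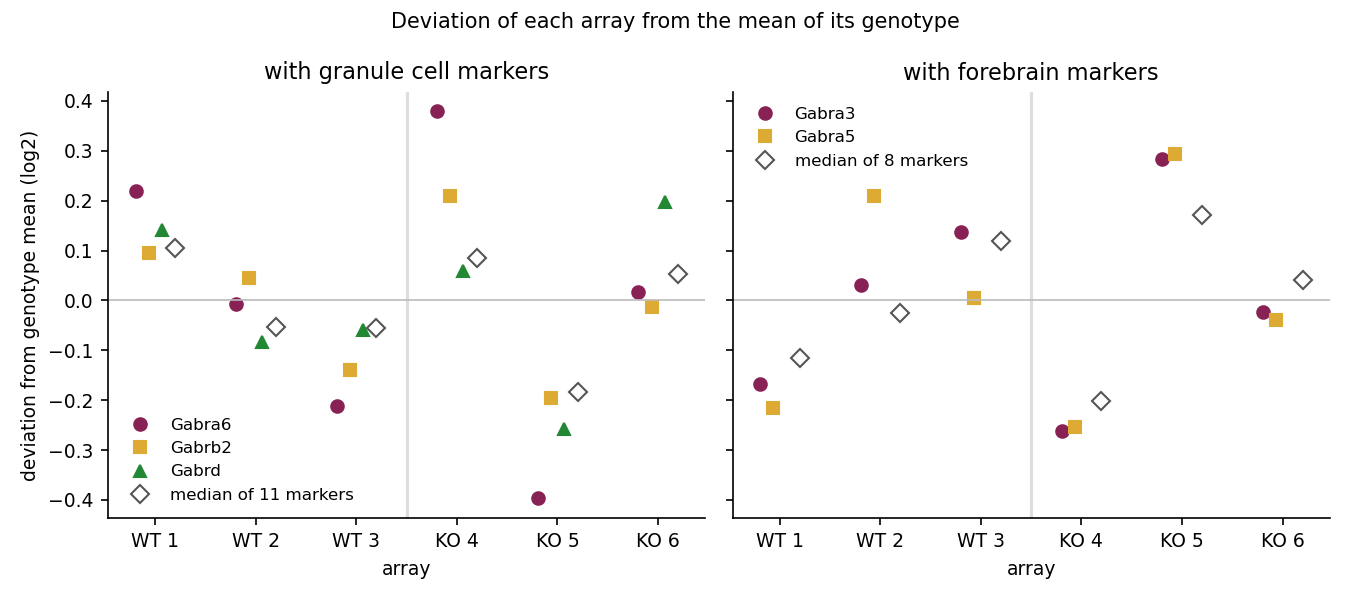
Deviation of each array from the mean of its genotype (log2, vertical axis) for the brightest probes of Gabra6, Gabrb2 and Gabrd beside the median of 11 granule cell markers (left), and for Gabra3 and Gabra5 beside that of 8 forebrain markers (right). On Gb5-deficient array 5 the first 3 genes lie between -0.40 and -0.20 and the other pair at 0.28 and 0.29.

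By the distance between profiles over the 6 arrays, each centred on its own mean, the tested genes nearest to Gabra6 were Car8 and Per2, both at a root mean square distance of 0.029 (log2). Nearest to Gabra3 were Tmod3 (0.030) and Lmo1 (0.032), to Gabra5 Atp8a2 (0.027) and Cacng4 (0.032), and to Gabrb2 Elovl2 (0.021) and Pafah1b1 (0.022). For Gabrb1 they were Mrpl51 (0.021) and Pus3 (0.022), for Gabrd Pla2g4d (0.029) and Rbm22 (0.043), and for Gabra2 Trim12a (0.052) and Vgll3 (0.057). Within 0.1 lay 42 genes for Gabra2, 100 for Gabra6 and 102 for Gabrd. For Gabra5 there were 221, for Gabra3 489, for Gabrb2 1041 and for Gabrb1 1798, so the named genes are the nearest of many.

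Of the other genes of GABA transmission, 44 of 58 listed were tested, and none passed (limma, adjusted over 14075 genes; 6 had an unadjusted p under 0.05). Differences were above 0 in 20 and below 0 in 24, with a median of -0.017. Genotypes did not overlap in 7 of them, 6 higher and 1 lower, where 10.1% of all genes were higher and 4.82% lower without overlap.

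Among other receptor subunits, Gabra4, Gabrg1 and Gabrg3 were tested, with differences of -0.025, -0.0074 and -0.022 (log2); their 95% intervals were -0.31 to 0.26, -0.34 to 0.32 and -0.43 to 0.38. Gabre, Gabrp, Gabrq, Gabrr1 and Gabrr2 had only probes below the filter, at mean signals from 2.85 to 4.20, and the other listed subunits were not analysed here. The GABA-making enzymes Gad1 and Gad2 differed by -0.097 and -0.043. Gad1 was lowest on array 5, at 10.90 against 11.16 to 11.51 on the other arrays, as Gabra6 was. The vesicular transporter Slc32a1 gave 10.47, 10.63 and 10.62 for wild type against 10.64, 10.66 and 10.92 in Gb5-deficient mice, just without overlap, a difference of 0.17 (95% interval -0.062 to 0.40; limma adjusted p = 0.618).

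Genes of GABA uptake and breakdown had a median of -0.058 over 6 tested, which was 0.011 without wild-type array 2 and -0.0039 without array 4. Aldh5a1, the last enzyme of GABA breakdown, gave 12.04, 12.02 and 12.03 (log2) for wild type against 11.94, 11.91 and 11.75 in Gb5-deficient mice. The arrays did not overlap, and the difference was -0.17 (95% interval -0.32 to -0.014; limma adjusted p = 0.574). The GABA transporter Slc6a13 and the dehydrogenase Aldh9a1 differed by -0.095 and 0.081.

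Receptor anchoring and traffic had 22 tested genes, 12 above and 10 below 0, with a median of 0.0060. The scaffold gephyrin (Gphn) differed by -0.059, with a 95% interval from -0.33 to 0.21. The 3 smallest p-values belonged to genes that were higher without overlap. They were Clptm1, which holds subunits back in the endoplasmic reticulum (0.35; limma adjusted p = 0.553), Plcl2, a receptor-trafficking adaptor (0.34; 0.554), and Mdga1, a synaptic adhesion gene (0.33; 0.553). Mdga1 was near the filter, at 4.74 in wild type. Plcl2 and Clptm1 were highest on array 6, at 9.60 and 9.55.

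Chloride transporters set whether GABA-A receptor opening inhibits. Slc12a5, the neuronal chloride exporter KCC2, gave 12.04, 11.93 and 11.97 (log2) for wild type against 12.10, 12.11 and 12.22 in Gb5-deficient mice. All Gb5-deficient arrays lay above the wild-type arrays, and the difference was 0.17 (95% interval 0.024 to 0.31; limma adjusted p = 0.572). The chloride channel Clcn2 (0.17) was also higher without overlap, Slc12a7 differed by 0.21 with overlap, and the importer Slc12a2 by -0.11. The median of the 5 tested was 0.17, and -0.049 with the mean of each gene's probes. Among modulator ligands and neurosteroid synthesis (5 tested, median -0.018), Akr1c14, an enzyme that makes allopregnanolone, differed by -0.35 (95% interval -0.71 to 0.015; limma adjusted p = 0.595), Star by -0.11 and Cyp11a1 by 0.096.

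**Figure D4:**
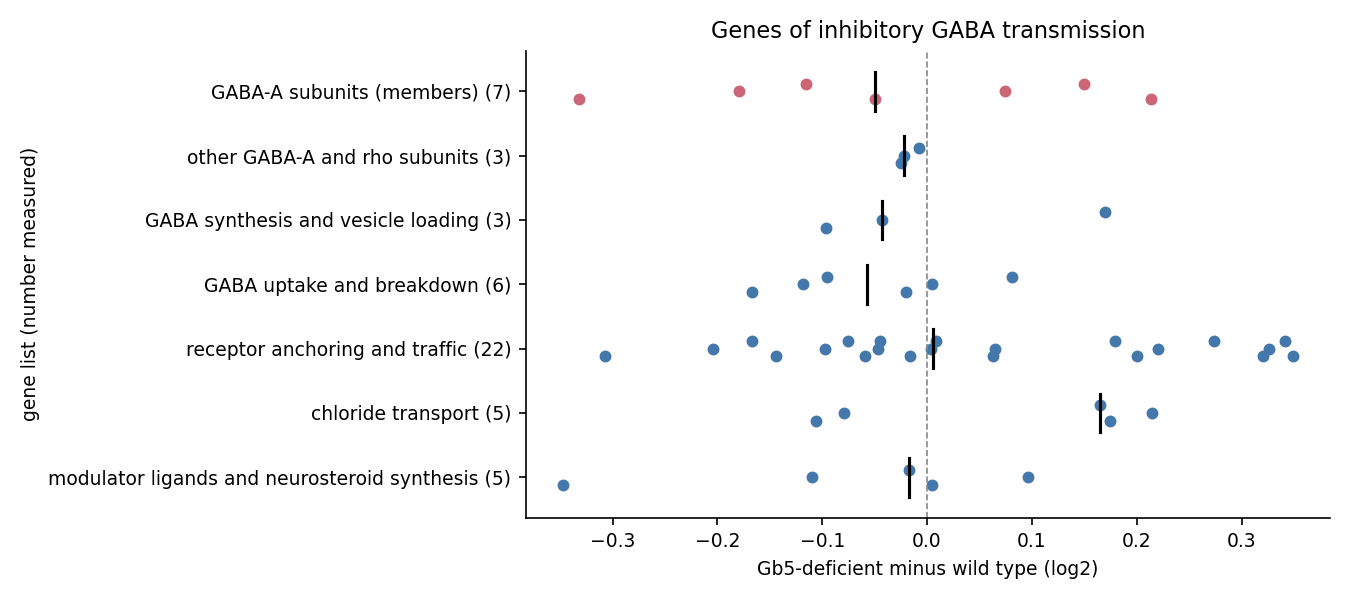
Gb5-deficient minus wild type (log2, horizontal axis) for the 7 subunit genes and for the tested genes of 6 lists of GABA transmission; each point is a gene and the vertical bar the median of its list. Medians lie between -0.058 and 0.17, and no gene passed the adjusted threshold.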

How the data were processed

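The deposited table holds log2 signals, 1 per probe and array, which the authors made with RMA and Partek, per the submitters' processing notes, with no versions. RMA equalises array distributions, so a global shift would not be seen. Scanner files and detection calls were not used here. Of 45101 probes, 64 controls were left out; the platform annotation gives 1 gene for 34945, several for 932 and none for 9160, and symbols were updated in a RefSeq table (GRCm38.p6) for 34741. Each gene was represented by its probe of highest mean and kept above the 30th percentile of probe means (4.70), leaving 14075 of 18193 genes. Genotypes were compared with limma 3.58.1 in R 4.3.3 (moderated, intensity trend, two-sided, Benjamini-Hochberg, threshold 0.05), for genes and for all 45037 probes without a filter. Permuting 3 against 3 arrays cannot give p below 0.1. The same script, tested on 10 simulated tables of 14075 genes (200 of them altered, noise independent between genes), made 4.55% false calls. Named are all members and, of each of 6 pathway lists, passing genes and the 3 smallest p-values, with other names chosen after their values were seen; likeness took the 2 nearest genes with an SD at least 0.5 times that of the member. Members and lists were chosen with earlier results of these data known. Alternatives were filters, scalings, probe means, variance models, array weights and leaving out each array; a pseudocount was planned for linear values and not run.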

Additional observations from a re-analysis of the deposited data

How the results depend on the processing

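No member gene and no member probe passed in any alternative; the lowest adjusted p was 0.261 for genes and 0.321 for probes. Genes past the threshold numbered 8 with no filter, 3 with the 50th percentile and 2 to 10 with single arrays left out, against 5. Probes numbered 17 with array medians subtracted, 16 with array weights and 6 to 24 with single arrays left out, against 10. The mean of a gene's probes moved 3 members in the wild-type order. The count of genes whose brighter probes shared a direction was 2 to 4 with single arrays left out. Of 91 alternative values of the 7 genes 4 turned sign, in Gabra3 and Gabra6, and of 226 values of the 21 probes 18 did, in 10 probes; the cause was not tested. With array weights Gabra3 was -0.028, its dim probe -0.065 and the dimmest Gabra2 probe 0.025. The Gabrb1 probe at 7.31 was -0.0020 after a second quantile normalization and -0.0021 with medians subtracted. With single arrays left out, ranges were -0.068 to 0.20 for Gabra3 (dim probe -0.27 to 0.30), -0.37 to 0.019 for Gabra6, -0.025 to 0.077 and -0.049 to 0.087 for the next Gabrb1 probes and -0.095 to 0.0015 for its dim one. They were -0.21 to 0.028 and -0.13 to 0.020 for the Gabrb2 probes at 11.38 and 4.13, -0.054 to 0.066 for the dimmest Gabra2 probe and -0.13 to 0.19 for the dim Gabrd probe. No paired analysis was possible because the groups share no replicate numbers. The number of arrays limits the precision, and dim probes cannot be told from background.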
